A study of Mus with 4 samples.

Results

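Solute carriers are membrane proteins that move ions, amino acids, sugars, metals and other small molecules across cell and organelle membranes, and many of their genes also give rise to circular RNAs (circRNAs). The circRNAs described here were all those assigned to a single host gene whose mouse symbol is Slc followed directly by a digit, with Slc24a1 left out. There were 496 such circRNAs from 136 host genes, among 44073 circRNAs in all and 7140 host genes that could be matched to a symbol. The reference table used for the symbols holds 374 protein-coding genes named this way. The rule goes by symbol, so Slc4a1ap and Slc7a6os were also taken in, although neither name denotes a transporter of its own.

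The study sequenced circRNA from ocular tissue of C57BL/6J mouse pups that were either wild type or carried a VLDLR deletion, which removes a receptor for very low density lipoprotein. All 4 groups had been kept in 75% oxygen from postnatal day 7 to day 12. Tissue was taken on day 12 (P12), straight after the oxygen, or on day 13 (P13), 1 day after the return to room air. Each group was represented by 1 library, and the labels give neither the number of animals behind it nor the allele of the deletion. Ribosomal and linear RNA had been removed from total RNA before sequencing. The 4 libraries are wild type P12, wild type P13, VLDLR deletion P12 and VLDLR deletion P13, and values are given below in that order. Every group had the oxygen exposure, so none shows the effect of oxygen itself.

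A circRNA forms when the end of an exon is joined back to the start of the same or an upstream exon. The reads that cross this join, called junction reads, are counted apart from the other reads at the same splice positions, called non-junction reads. CircRNAs lack free ends and outlast most linear transcripts, so their level reflects how often back-splicing occurs and how long the circle persists as well as how much the host gene is transcribed. In the eye, solute carriers set the neuronal chloride gradient, clear neurotransmitter from the synapse, exchange calcium in photoreceptors and muscle, and supply lactate, glucose and amino acids across the pigment epithelium and vessel wall.

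The wild-type libraries held 662811 and 759063 junction reads over all circRNAs, and the deletion libraries 299723 and 341873. No sequencing run was shared between the genotypes, so the sequencing run and the genotype cannot be told apart, and P13 pups were also a day older than P12 pups, so age and return to air cannot be told apart. The tables list no circRNA of Vldlr in any library, so the deletion itself could not be checked from these data. The tables start at 2 junction reads, so an unlisted circRNA may have had fewer reads or have been left out by the caller. Marker hosts showed a mixed eye sample. Reads of rod markers summed to between 122 and 175 per 100000 scaled junction reads in the wild-type libraries and to 353 and 359 in the deletion libraries, and all 3 of the rod markers tested rose, while Gnat1 and Cnga1 were at 0. Lens markers summed to between 59.3 and 72.0 in wild type, against 187 to 245 in the deletion, with 1 host rising and 1 falling. Bipolar cell markers summed to 36.6 and 34.9 in wild type and to 68.1 and 51.6 in the deletion, and 2 of 3 tested rose. Striated muscle markers lay between 218 and 288 with 0 of 3 called by edgeR, and of the 4 leukocyte and microglia markers 3 were at 0 and Itgam had 0, 0, 3 and 3 reads. The part of these tissue markers in any result below was not tested, and in bulk tissue fewer cells of a type and less RNA per cell cannot be told apart.

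Solute carrier circRNAs made up a slightly smaller share of all junction reads in the deletion libraries than in the wild-type libraries. The share was 0.890% in wild type P12 (5900 reads, exact 95% interval 0.868 to 0.913%) and 0.875% in wild type P13 (6644 reads, 0.855 to 0.897%). It was 0.785% in the deletion at P12 (2354 reads, 0.754 to 0.818%) and 0.769% at P13 (2630 reads, 0.740 to 0.799%). These intervals, like all counting intervals here, cover counting error only, since the reads carried no molecular identifiers. Both deletion intervals lay below both wild-type intervals. The difference stood without the most read host: the other hosts had shares of 0.691% and 0.692% in wild type, against 0.589% and 0.617% in the deletion libraries.

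The reads were concentrated in few hosts. Slc8a1, which encodes the sodium-calcium exchanger NCX1, held 21.8% of the 17528 solute carrier junction reads, the 5 most read hosts held 45.2%, and 31 hosts had at least 100 reads over the 4 libraries. A host gave a median of 2 circRNAs (3 over all hosts), 53 hosts gave 1, and Slc4a7 gave 28. Of the 496 circRNAs, 459 were classed as exonic and 37 as intronic, and the intronic ones held 1.78% of the reads. All 496 lay within the interval of their host gene in the reference table, with spans from 220 to 194924 bases. There were 109 circRNAs listed in all 4 libraries, and these held 83.7% of the reads. A further 247 were listed in wild-type libraries alone and 49 in deletion libraries alone, but the wild-type libraries held more junction reads in all. The share of all circRNAs listed in 1 genotype alone is not given here. Each library listed 301, 352, 171 and 202 solute carrier circRNAs, beside 28563, 31208, 18022 and 20129 circRNAs of any host.

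Host levels are given as junction reads per 100000 reads of each library after scaling with edgeR's trimmed mean of M-values (TMM), which sets the bulk of hosts level between libraries. The level of Slc8a1 was 212, 195, 218 and 170, with the deletion libraries on either side of the wild-type ones. Nearly all of these reads came from a single circRNA at chromosome 17, 81647809 to 81649638, with a span of 1830 bases, a circle of the gene that has been widely studied in heart. It had 1215, 1290, 532 and 461 junction reads, and these were 88.1%, 92.1%, 86.8% and 84.7% of the junction and non-junction reads at its splice positions. The deposited junction ratio, which counts each circular read at both of its ends, was between 0.917 and 0.959. Slc9a7, a sodium-proton exchanger of the Golgi, was at 69.8, 69.4, 55.9 and 54.5, and both deletion libraries were lower than both wild-type libraries. Slc4a7, a sodium-bicarbonate cotransporter expressed in photoreceptors, was at 53.7, 54.0, 48.5 and 65.3, with overlapping groups. Slc30a7, which loads zinc into the Golgi, was at 54.9, 57.2, 39.2 and 45.0, again lower in both deletion libraries. Slc20a2, a sodium-phosphate cotransporter, was at 44.9, 44.1, 33.3 and 42.8. None of these 5 hosts passed the genotype test, with log2 fold changes (deletion over wild type) between -0.41 and 0.07 and adjusted p between 0.0896 and 0.837 from edgeR's quasi-likelihood test, adjusted by the Benjamini-Hochberg method over all hosts tested. On the authors' SRPBM scale, described below, all 5 were lower in the deletion (log2 fold changes -1.94 to -1.45) and passed. Slc9a7 and Slc30a7 also fell when only circRNAs listed in all 4 libraries were summed (adjusted p = 0.0301 and 0.0147 by edgeR) and when the listing minimum was scaled to depth (0.0480 and 0.0211).

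**Figure D1:**
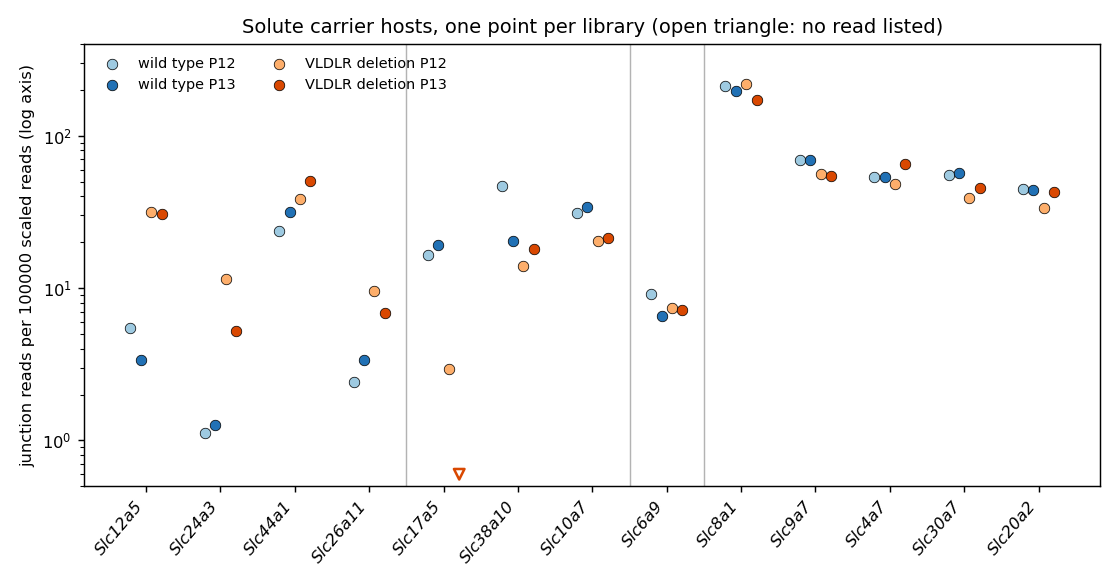
Junction reads per 100000 scaled reads (log axis) of 13 solute carrier hosts, one point per library, with the hosts that rose at the left, then those that fell, then Slc6a9, then the 5 most read hosts. Slc12a5 lay at 31.8 and 30.7 in the deletion against 5.45 and 3.37 in wild type, and Slc17a5 had no read in the deletion at P13 (open triangle), while the most read hosts lay close together.

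Junction reads were summed per host and tested with genotype and day as additive terms, over all 3896 hosts that had 10 or more reads in 2 or more libraries. Of the 136 solute carrier hosts, 61 entered this test. Of these, 13 met the minimum through 1 genotype alone, among them Slc17a5 and Slc24a3, so that their reads had to differ between genotypes. The wild-type libraries held more junction reads, so on the TMM scale meeting it through wild type did not fix a difference in level. The other 75 had 2 to 46 reads each (median 6) and together 3.95% of the reads. With 4 libraries and no replicates the fit had 1 residual degree of freedom, the departure from additive genotype and day terms. For hosts the spread was pooled over all hosts, so a host's own spread between libraries had no weight. For single circRNAs the pooled spread had a weight of 16.3 degrees of freedom beside this 1. These p-values therefore do not measure the spread between animals. In the deletion libraries 4 solute carrier hosts rose (Slc12a5, Slc24a3, Slc44a1 and Slc26a11), against 7.49% of all hosts tested. Another 3 fell (Slc17a5, Slc38a10 and Slc10a7), against 6.6% of all hosts. The 7 hosts were 11.5% of those tested, beside 14.1% of all hosts, a share near that background. At an unadjusted p under 0.05, 5 were higher and 11 lower. DESeq2 called 1 host, Slc12a5. For unadjusted p-values and for DESeq2, here and below, the share over all hosts is not given. Those counts therefore describe no trait of the group. With genotype as the only term, as in the fits below that leave out a library, Slc26a11, Slc38a10 and Slc10a7 did not pass even with all 4 libraries (adjusted p = 0.050, 0.0946 and 0.0540), so for these hosts a lost call below goes with both changes.

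The median log2 fold change of the 61 hosts was -0.19, beside -0.05 over all hosts tested. It was also -0.19 with Slc31a1, which had no deletion read, set at 3 reads over the deletion libraries. Among the 54 hosts that did not pass, 36 had a negative and 18 a positive log2 fold change. Both deletion levels lay above both wild-type levels in 10 hosts (16.4%, beside 25.7% of all hosts) and below them in 22 hosts (36.1%, beside 29.6%). The directions depended on the scale. The authors' SRPBM values divide the reads of each library by a constant, and the sources used here do not state its basis. The constant was 9.14, 9.10, 10.6 and 12.1, larger in the deletion libraries although these held fewer junction reads. On that scale, on which the median of all hosts was lower in the deletion by a log2 fold change of -1.57, 1 solute carrier host rose (0.18% of all hosts did) and 44 fell (76.2% of all hosts did). The solute carrier median was then -1.70. Slc12a5 was the host that rose on both scales.

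**Figure D2:**
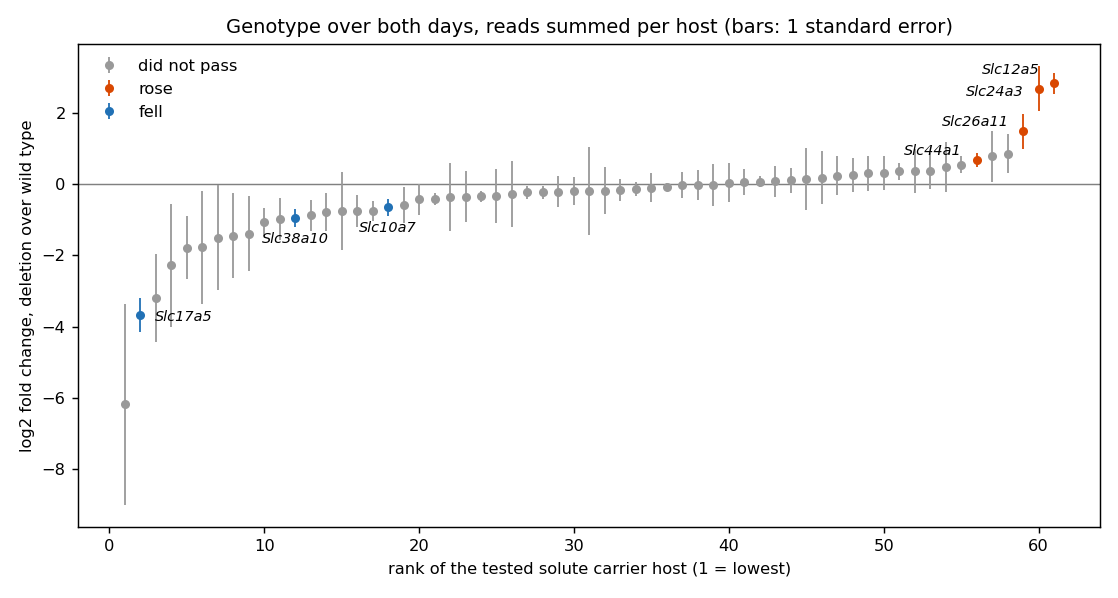
Log2 fold change (deletion over wild type, both days) of the 61 tested solute carrier hosts in rank order, with bars of 1 standard error. Most hosts lie near 0 with wide bars on the low side, and the 7 hosts that passed are coloured and named.

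Slc12a5 encodes KCC2, the potassium-chloride cotransporter that keeps chloride low in mature neurons, so that GABA and glycine can inhibit them. Its circRNAs had 34, 24, 86 and 94 junction reads, or 5.45, 3.37, 31.8 and 30.7 per 100000. The deletion libraries were far above the wild-type libraries on both days, in reads as well as in level. The host rose with a log2 fold change of 2.84 ± 0.30 (SE; adjusted p = 4.18e-19 by edgeR, Benjamini-Hochberg), and it rose by 1.33 on the SRPBM scale (adjusted p = 0.00347). The ratio of deletion to wild type was 5.83 at P12 (exact 95% counting interval 3.88 to 8.95) and 9.10 at P13 (5.76 to 14.9). Leaving out each library in turn gave log2 fold changes between 2.47 and 3.16, each of which passed.

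Of the 6 Slc12a5 circRNAs, all exonic and on the plus strand, a single one carried most of the difference. CircRNA 1 spans 893 bases at chromosome 2, 164973687 to 164974579. It had 8, 2, 69 and 75 junction reads, which was 23.5%, 8.33%, 80.2% and 79.8% of the host's reads. It rose with a log2 fold change of 4.96 ± 0.41 (SE; adjusted p = 8.92e-07 by edgeR, Benjamini-Hochberg), and by 3.54 on the SRPBM scale (adjusted p = 0.00268). DESeq2 called it too (adjusted p = 3.24e-12). It met the filter on reads through the deletion libraries alone, so its reads had to be higher there. With no filter it still passed. Without either deletion library it was below the filter and was not tested.

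Reads in the linear order at the same splice positions did not show such a gap in unscaled counts. The deletion libraries held fewer junction reads in all, so lower counts there do not by themselves show a lower level. There were 318, 361, 219 and 211 non-junction reads at the splice positions of circRNA 1. Circular reads were thus 2.45% and 0.551% of all reads counted there in wild type, against 24% and 26.2% in the deletion. The deposited junction ratio was 0.048, 0.011, 0.387 and 0.416. By either measure the circle took a larger part of the reads at its splice positions in both deletion libraries. Linear RNA had been removed before sequencing, so these shares also depend on how much of it was left in each library. That was not tested.

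The other 5 Slc12a5 circRNAs had few reads and none entered the single-circRNA test. CircRNA 2 (164974448 to 164976563), whose start lies inside circRNA 1, had 3, 6, 10 and 6 reads. CircRNA 3 (164979279 to 164983561) had 8, 8, 2 and 5, and circRNA 5 (164986605 to 164989106) had 10, 8, 5 and 8. CircRNAs 4 and 6 had 3 and 2 reads, in wild type P12 alone. Summed without circRNA 1, the host had 26, 22, 17 and 19 reads, with a ratio of deletion to wild type of 1.51 at P12 (0.768 to 2.89) and 2.01 at P13 (1.03 to 3.88). The rest of the host thus gave a much smaller ratio than circRNA 1. Its counting interval held 1 at P12 but lay above 1 at P13.

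**Figure D3:**
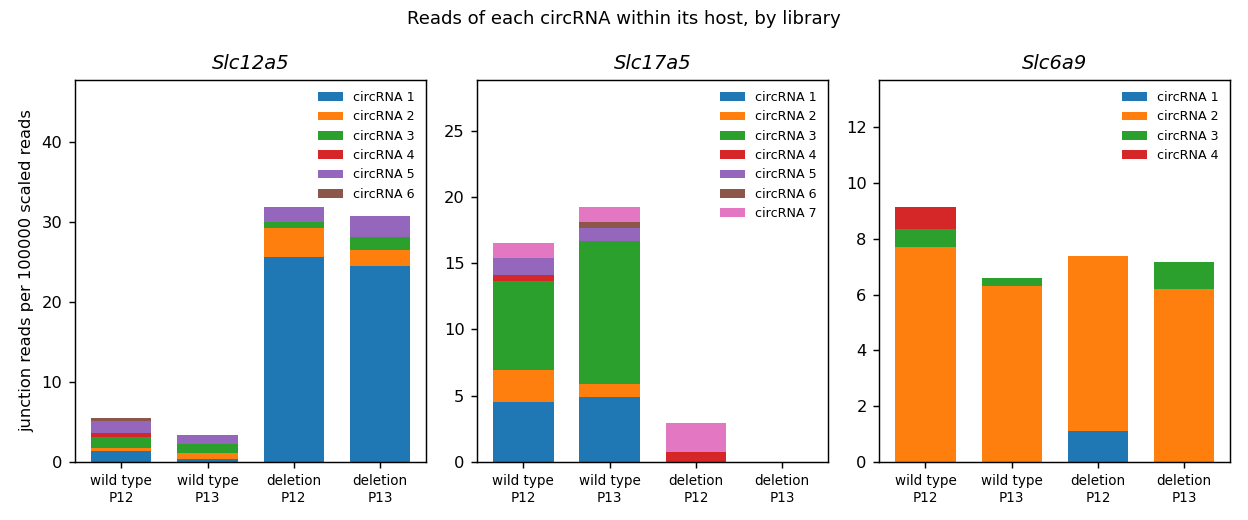
Junction reads per 100000 scaled reads of each circRNA of Slc12a5, Slc17a5 and Slc6a9, stacked by library, each panel on its own linear axis. CircRNA 1 fills most of the Slc12a5 bars in the deletion, circRNAs 1 to 3 are missing from the Slc17a5 bars in the deletion, and circRNA 2 fills most of every Slc6a9 bar.

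Slc12a2 encodes NKCC1, which imports chloride and opposes KCC2, and its 3, 13, 0 and 7 reads were too few to test. Over all 6 hosts of the cation-chloride cotransporter family the summed level was 28.1, 31.9, 58.8 and 61.0 per 100000, higher in both deletion libraries. Without Slc12a5 the other 5 hosts summed to 22.6, 28.5, 27.0 and 30.4, which overlapped between the genotypes. Of the family 3 hosts were tested, and Slc12a5 was the 1 that passed.

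Genes that act with KCC2 and with the sialic acid transporter were taken as a list of 54: the WNK and SPAK kinases that regulate chloride cotransport, GABA and glycine receptors and their scaffolds, chloride channels, the sodium pump and enzymes of sialic acid. CircRNA reads were listed for 38 of them and 19 were tested; 1 rose and 2 fell, with 3 higher and 4 lower at an unadjusted p under 0.05. Over all hosts tested 7.49% rose and 6.6% fell. The median log2 fold change of the list was -0.43, beside -0.05 over all hosts. Stk39, the SPAK kinase, had 1795, 2215, 1004 and 1187 reads and rose with a log2 fold change of 0.34 ± 0.10 (SE; adjusted p = 0.00978 by edgeR, Benjamini-Hochberg). Wnk2, a kinase that acts upstream of SPAK, had 50, 57, 8 and 8 reads and fell by 1.52 ± 0.50. Oxsr1, the kinase most like SPAK, had 91, 116, 19 and 29 reads and fell by 0.91 ± 0.32. On the SRPBM scale Stk39 was lower in the deletion (log2 fold change -1.18), 0 hosts of the list rose and 18 fell (76.2% of all hosts fell), while DESeq2 called 1 host of the list.

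Slc17a5 encodes sialin, which exports sialic acid from lysosomes. Its circRNAs had 103, 137, 8 and 0 junction reads, or 16.5, 19.3 and 2.96 per 100000 in the first 3 libraries. Both deletion levels lay below both wild-type levels. The ratio of deletion to wild type was 0.179 at P12 (0.0753 to 0.366). At P13 the deletion library had no read listed, and the ratio was 0 (0 to 0.0634). That interval does not cover reads below the listing minimum. The host fell in edgeR's quasi-likelihood test (adjusted p = 3.08e-12) and was lower on both days, but DESeq2 did not call it (adjusted p = 0.198). Without either wild-type library it was below the filter on reads, and without the deletion P13 library it still fell (log2 fold change -2.57, adjusted p = 2.52e-06).

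The 7 Slc17a5 circRNAs are exonic, on the minus strand of chromosome 9, and separate by position. CircRNAs 1, 2 and 3 start at 78540899, 78552934 and 78557457 and share the end 78560806. CircRNA 1 had 28 and 35 reads in the wild-type libraries, circRNA 2 had 15 and 7, and circRNA 3 had 42 and 77, and none had a read in a deletion library. Together they had 85, 119, 0 and 0 reads. The counting interval of the ratio of deletion to wild type ran from 0 to 0.102 at P12 and from 0 to 0.0731 at P13. Singly, circRNA 1 (adjusted p = 0.00186) and circRNA 3 (adjusted p = 1.11e-04) fell in edgeR's quasi-likelihood test, and neither was tested without either wild-type library. Both met the filter on reads through the wild-type libraries alone, and DESeq2 called neither.

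CircRNAs 4 to 7 of Slc17a5 lie between 78571022 and 78578707 and showed another pattern. Their summed reads were 18, 18, 8 and 0. At P12 the ratio of deletion to wild type was 1.03 (0.386 to 2.48), and at P13 it was 0 (0 to 0.528). CircRNA 7, at 78577030 to 78578707, had 7, 8, 6 and 0 reads. Circular reads were 82.4% and 79.5% of the reads at the splice positions of circRNA 1 in wild type, and 56.8% and 49.4% at those of circRNA 3. The reads of Slc17a5 in the deletion at P12 thus all came from circRNAs 4 and 7.

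**Figure D4:**
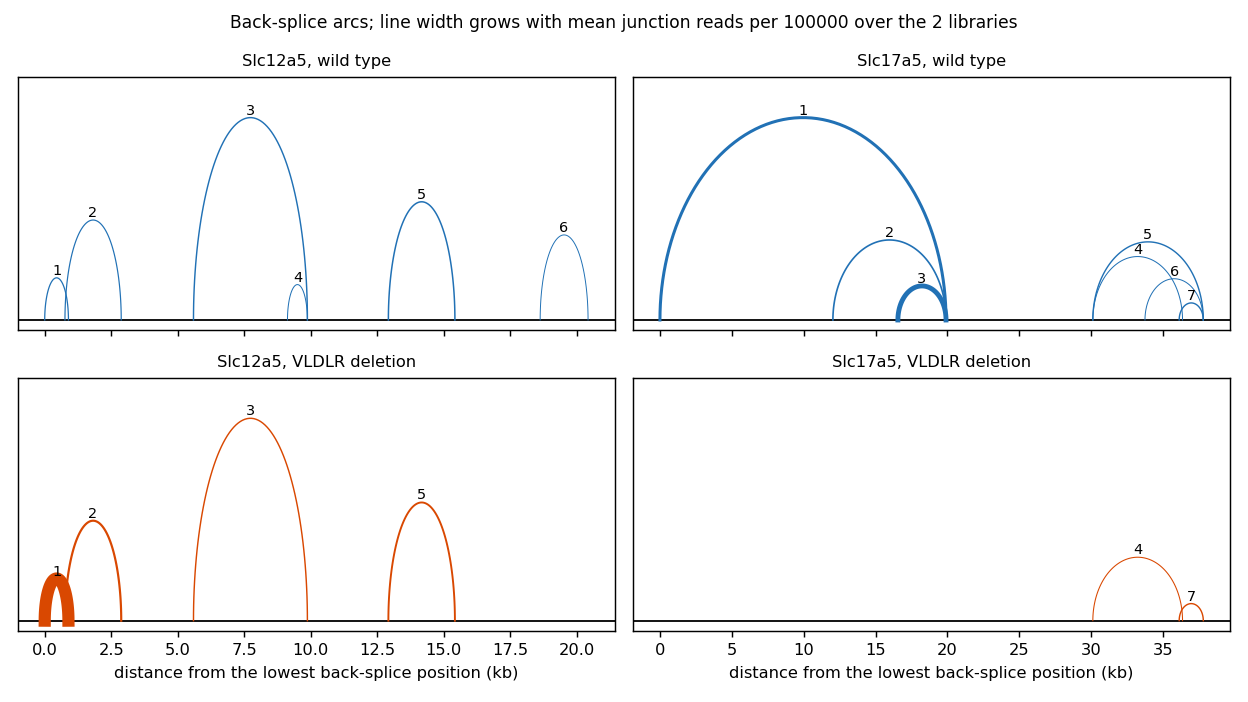
Back-splice joins of Slc12a5 (left) and Slc17a5 (right) drawn as arcs between their positions, in kilobases from the lowest position, for wild type (top) and VLDLR deletion (bottom), with line width growing with the mean level over the 2 libraries. The short arc of circRNA 1 thickens in the deletion for Slc12a5, and the arcs of circRNAs 1 to 3 are missing in the deletion for Slc17a5.

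Slc6a9 encodes GlyT1, which takes up glycine and in the retina marks glycinergic amacrine cells. Its 57, 47, 20 and 22 reads gave levels of 9.14, 6.60, 7.40 and 7.18 per 100000. Both deletion values lay between the wild-type values, with a log2 fold change of -0.09 ± 0.41 (SE; adjusted p = 0.926 by edgeR, Benjamini-Hochberg). On the SRPBM scale the log2 fold change was -1.61 (adjusted p = 0.00370), near the -1.57 of the median host. CircRNA 2 at chromosome 4, 117855875 to 117857473, had 48, 45, 17 and 19 reads and made up between 84.2% and 95.7% of the host in each library. Its junction ratio was 0.298, 0.315, 0.238 and 0.262, and it did not pass (log2 fold change -0.22, adjusted p = 0.798 by edgeR; on the SRPBM scale -1.67, 0.00769). The other 3 circRNAs of the host had 2 to 5 reads where listed. Over the 6 hosts of the neurotransmitter, taurine and creatine family, 4 were tested and none passed, with log2 fold changes between -0.33 and 0.26.

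Slc24a3 encodes NCKX3, a potassium-dependent sodium-calcium exchanger. It had 7, 9, 31 and 16 reads, or 1.12, 1.26, 11.5 and 5.22 per 100000, and both deletion libraries were higher in reads as well as in level. It rose with a log2 fold change of 2.69 ± 0.64 (SE; adjusted p = 5.53e-04 by edgeR, Benjamini-Hochberg), but not past the threshold on the SRPBM scale (1.18, adjusted p = 0.138), and it could not be tested without either deletion library. The host met the filter on reads through the deletion libraries alone, so its reads had to be higher there. With no filter the host still rose (log2 fold change 2.63, adjusted p = 0.00114 by edgeR). All 4 of its circRNAs end at 145518947 on chromosome 2. CircRNA 4, from 145512754, had 7, 5, 15 and 14 reads and rose by 2.40 ± 0.67 (adjusted p = 0.0337). Its junction ratio was 0.128 and 0.122 in wild type, against 0.357 and 0.364 in the deletion. CircRNA 2, an intronic one from 145484215, had 0, 0, 12 and 2 reads. CircRNA 4 met the filter on reads through the deletion libraries alone. It did not pass with no filter (adjusted p = 0.105 by edgeR), without robust estimation (0.0622), on the SRPBM scale (0.250), or without either wild-type library (0.106 and 0.168). Among the 7 sodium-calcium hosts, 5 were tested and Slc24a3 was the 1 that passed.

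Slc38a10 belongs to the family of sodium-coupled neutral amino acid transporters. It had 291, 145, 38 and 55 reads, or 46.7, 20.4, 14.1 and 18.0 per 100000. Wild type P12 stood well above the other libraries, and wild type P13 was close to the deletion at P13 (ratio 0.881, 0.634 to 1.21). The host fell by 0.95 ± 0.24 (SE; adjusted p = 0.00156 by edgeR, Benjamini-Hochberg), but the call was lost without wild type P12 (log2 fold change -0.38, adjusted p = 0.687). The call was also lost without either deletion library (adjusted p = 0.720 without P12 and 0.595 without P13). CircRNA 7, at chromosome 11, 120128423 to 120134882, had 216, 72, 12 and 21 reads and made up 74.2%, 49.7%, 31.6% and 38.2% of the host's reads. CircRNA 10, from 120132677 to the same end, had 16, 24, 14 and 22 reads and made up 5.50%, 16.6%, 36.8% and 40%. Neither passed singly (adjusted p = 0.222 and 0.216 by edgeR), and circRNA 7 was the more read of the pair in both wild-type libraries and about level with circRNA 10 in both deletion libraries.

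Slc44a1 encodes a choline transporter of the plasma and mitochondrial membranes. It had 148, 223, 104 and 155 reads, or 23.7, 31.3, 38.5 and 50.6 per 100000, and both deletion levels were the higher. It rose by 0.69 ± 0.20 (SE; adjusted p = 0.00530 by edgeR, Benjamini-Hochberg), with ratios of 1.62 at P12 (1.25 to 2.10) and 1.61 at P13 (1.31 to 1.99). On the SRPBM scale the direction turned (-0.83, adjusted p = 0.00400), and the call was lost without wild type P12 (adjusted p = 0.361) or without the deletion P13 library (0.136). CircRNA 5 of the host, at chromosome 4, 53481464 to 53517681, had 38, 50, 30 and 52 reads and rose by 1.02 ± 0.30 (adjusted p = 0.0414). On the SRPBM scale it too was lower (-0.44). It did not pass with genotype as the only term and all 4 libraries (adjusted p = 0.0689 by edgeR).

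Slc26a11 encodes an anion transporter of the sulfate family. It had 15, 24, 26 and 21 reads, or 2.41, 3.37, 9.62 and 6.85 per 100000, so that its reads overlapped between genotypes while its levels did not. It rose by 1.49 ± 0.50 (SE; adjusted p = 0.0245 by edgeR, Benjamini-Hochberg). On the SRPBM scale the log2 fold change was -0.03 (adjusted p = 0.963). The call was lost without either wild-type library or the deletion P12 library (adjusted p = 0.0878 to 0.215). Slc10a7, a member of the bile acid transporter family that is linked to skeletal growth, had 194, 244, 55 and 65 reads, or 31.1, 34.3, 20.4 and 21.2 per 100000. Both deletion levels were lower, and the host fell by 0.65 ± 0.23 (adjusted p = 0.0312). It did not pass with genotype as the only term (adjusted p = 0.0540 by edgeR) or in any such fit without a library (0.0542 to 0.259), where the log2 fold change lay between -0.76 and -0.62.

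Single circRNAs were tested over all 8785 that met the same minimum of reads, among them 88 of solute carriers from 50 hosts. The minimum was met through 1 genotype alone by 33 of the 88, among them circRNA 1 of Slc12a5, circRNAs 1 and 3 of Slc17a5 and circRNA 4 of Slc24a3. With no filter, all of these 4 but circRNA 4 of Slc24a3 still passed. Of the 88, 3 rose (5.03% of all circRNAs tested rose) and 3 fell (3.59%), 6.82% in all beside 8.62%. The 3 that rose were circRNA 1 of Slc12a5, circRNA 4 of Slc24a3 and circRNA 5 of Slc44a1. The 3 that fell were circRNAs 1 and 3 of Slc17a5 and circRNA 7 of Slc30a7. On the SRPBM scale 1 rose, circRNA 1 of Slc12a5 (0.285% of all circRNAs rose), and 52 fell (54.3% of all).

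CircRNA 7 of Slc30a7, at chromosome 3, 115978644 to 115993039, had 293, 352, 69 and 112 reads. It fell by 0.71 ± 0.18 (SE; adjusted p = 0.0217 by edgeR, Benjamini-Hochberg), with junction ratios between 0.926 and 0.961 in all 4 libraries. It did not pass with genotype as the only term (adjusted p = 0.0603 by edgeR), nor in DESeq2 (0.0833), and without the deletion P12 library its adjusted p was 0.218. CircRNA 5 of the host starts at the same position and ends at 115984974. It had 39, 30, 31 and 21 reads, with a log2 fold change of 0.73 ± 0.36 that did not pass. So 2 circles with a common start lay on opposite sides of 0, of which 1 passed.

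Each day was also compared by itself, as a ratio of the deletion to the wild-type library for hosts with at least 20 reads over both. A host was counted when the ratio passed 2-fold and its exact 95% counting interval excluded 1; such a ratio compares 2 libraries and has no replicate check. At P12, 5 of 53 solute carrier hosts were counted higher (7.41% of all hosts were) and 8 lower (10.1%). The largest ratios were those of Slc24a3 (10.2, 4.41 to 27.5), Slc12a5 and Slc18b1, a vesicular polyamine transporter (4.4, 2.03 to 10.1). Slc2a12 and Slc17a5 had the lowest ratios above 0, and Slc7a5 had no deletion read, so its place among them is not known. Slc7a5 encodes LAT1, the transporter of large neutral amino acids at the blood-brain and blood-retina barriers. It had 20, 23, 0 and 2 reads, with a ratio of 0 at P12 (0 to 0.467), though it did not pass over both days (adjusted p = 0.0675 by edgeR). Slc2a12, a glucose transporter, had 29, 20, 2 and 4 reads, with a ratio of 0.159 (0.0184 to 0.629).

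At P13, 4 of 57 hosts were counted higher (6.67% of all hosts) and 5 lower (8.92%). Slc12a5 led, followed by Slc24a3 (4.13, 1.72 to 10.6) and Slc19a1, the reduced folate carrier, which had 13, 9, 0 and 11 reads (2.84, 1.07 to 7.75). Among the lowest were Slc17a5, with no deletion read, Slc7a5 (0.202, 0.0231 to 0.817) and Slc11a2, the iron transporter DMT1, which had 16, 31, 12 and 4 reads (0.300, 0.0768 to 0.848). Slc12a5, Slc24a3 and Slc26a11 were counted higher on both days, and Slc17a5 and Slc7a5 lower on both. These were 5.88% and 3.92% of the 51 hosts with a ratio on each day, beside 2.51% and 3.57% of all such hosts. Of the 51, 12 (23.5%) had both ratios above 1 and 18 (35.3%) had both below 1, beside 32.9% and 35.0% of all hosts. The other 21 (41.2%) lay on opposite sides, beside 32.1% of all hosts. Slc31a1, the copper importer, had 11, 14, 0 and 0 reads, too few on either day to be given a ratio.

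**Figure D5:**
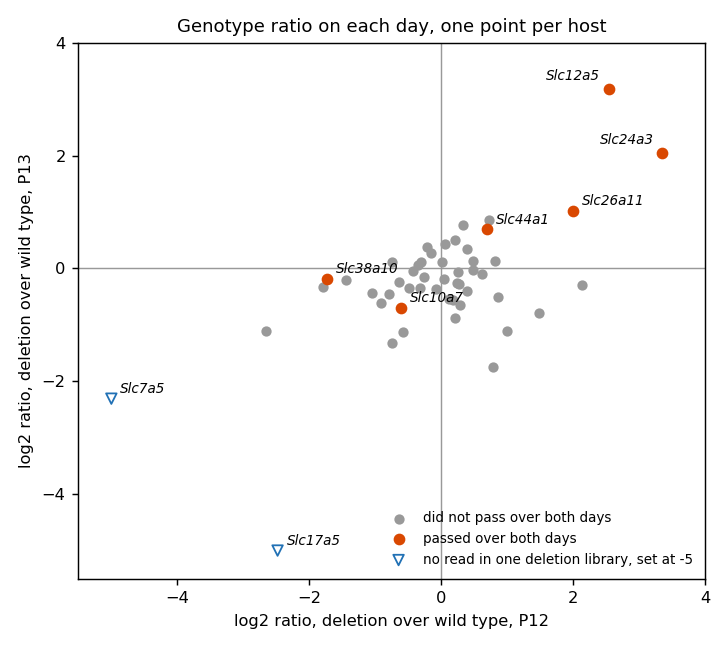
Log2 ratio of deletion to wild type at P12 (x axis) against P13 (y axis) for the 51 solute carrier hosts with at least 20 reads in each pair of libraries, with a host that had no read in a deletion library set at -5 (open triangle). Slc12a5, Slc24a3 and Slc26a11 lie at the upper right, Slc17a5 and Slc7a5 at the lower left, and most others near 0.

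No solute carrier host passed the test of the day. Over both genotypes 0 of the 61 hosts passed in edgeR's quasi-likelihood test, beside 0.103% of all hosts (0.0257% rose and 0.077% fell). At an unadjusted p under 0.05, 1 was higher and 3 lower at P13, and DESeq2 called 0. Of the 88 circRNAs 0 passed, beside 0.0228% of all (0.0114% in each direction), with 1 higher and 0 lower at an unadjusted p under 0.05 and 0 called by DESeq2. Between the wild-type libraries 3 of 62 hosts were counted higher at P13 (3.65% of all hosts) and 4 lower (3.7%). Slc37a3, an organophosphate carrier of the lysosome, had 6 and 28 reads (ratio 4.09, 1.66 to 12.1). Slc18b1 had 11 and 34 (2.71, 1.34 to 5.93), and Slc46a3, a lysosomal transporter, had 14 and 32 (2.0, 1.04 to 4.06). Those 3 were higher at P13.

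The lowest wild-type ratios of P13 to P12 were those of Slc15a4, Slc43a2 and Slc38a10. Slc15a4, a lysosomal histidine and peptide transporter, had 33 and 7 reads (0.186, 0.0694 to 0.427). Slc43a2, an amino acid transporter, had 25 and 12 (0.421, 0.193 to 0.869), and Slc38a10 had a ratio of 0.437 (0.355 to 0.535). Between the deletion libraries 0 of 41 hosts were counted higher (3.7% of all hosts) and 3 lower (3.66%). These were Slc2a13, a proton-coupled inositol transporter, with 19 and 7 reads (0.325, 0.116 to 0.807), Slc25a26, the mitochondrial carrier of the methyl donor S-adenosylmethionine, with 26 and 10 (0.339, 0.146 to 0.727), and Slc24a3 (0.455, 0.233 to 0.858). In Slc24a3 the deletion library at P12 was thus higher than that at P13.

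The hosts were also grouped by the family number in their symbol. The amino acid families formed the group with most hosts, 23 with Slc7a6os among them, of which 7 were tested, 1 fell and 0 rose. Their summed level was 139, 112, 89.9 and 106 per 100000, and their most read host was Slc7a8, the exchanger LAT2, at 38.3, 44.3, 36.2 and 34.3. Mitochondrial carriers had 19 hosts, 5 tested and 0 called by edgeR. The most read of them, Slc25a46, which acts in the outer mitochondrial membrane, was at 10.3, 8.57, 11.1 and 5.87. Metal transporters summed to 85.8, 98.9, 64.0 and 68.9, lower in both deletion libraries, but 0 of 6 tested hosts were called.

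Glutamate and neutral amino acid transporters of the Slc1 family were led by Slc1a7, the photoreceptor and bipolar cell transporter EAAT5, at 14.1, 12.9, 15.9 and 8.81 per 100000. It did not pass (log2 fold change -0.17, adjusted p = 0.793 by edgeR). Monocarboxylate transporters were led by Slc16a1, the lactate carrier MCT1, with 19, 29, 10 and 8 reads, and 0 of 3 tested hosts were called. The sugar transporters summed to 31.3, 22.4, 18.9 and 16 per 100000, lower in both deletion libraries. Their most read host, Slc45a4, had 144, 104, 30 and 33 reads and a log2 fold change of -0.75 ± 0.29 that did not pass (adjusted p = 0.0630 by edgeR). Vitamin transporters were led by Slc23a2, the vitamin C transporter of neurons and other cells, at 8.50, 12.1, 11.1 and 9.14, with 0 of 3 tested hosts called. The groups that summed to non-overlapping levels included both families with called hosts and families without any.

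The order of junction ratios between solute carrier circRNAs and all circRNAs depended on the minimum of reads. Among exonic circRNAs with at least 20 reads in every library, 20 solute carrier circRNAs had median junction ratios of 0.573, 0.497, 0.478 and 0.592, while 2020 circRNAs of all hosts had 0.625, 0.634, 0.627 and 0.627. Their median span was 11023 bases, beside 9403 bases over all hosts. With any number of reads, 459 solute carrier circRNAs had medians of 0.189, 0.169, 0.243 and 0.233, and all hosts had 0.155, 0.151, 0.240 and 0.222. The order of the spans turned as well, with medians of 9939 and 10391 bases. Circles of very different kind occurred among the members described. The abundant circle of Slc8a1 held 84.7% to 92.1% of the reads at its splice positions, and that of Slc30a7 held 86.3% to 92.6%. At the splice positions of circRNA 1 of Slc12a5 most reads were non-junction reads even in the deletion.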

How the data were processed

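One circRNA library of mouse ocular tissue was available for each of 4 groups. Per the file headers, the authors deposited for each circRNA the count of junction reads, the count of non-junction reads and the junction ratio, a fraction. They also deposited back-splice read counts with SRPBM, a signal scaled by a constant per library whose basis is not given. The submitters' processing notes name BWA and DESeq2. Neither build nor annotation of the alignment is given in the sources used here, so coordinates are as in the deposited tables. Host gene IDs were matched to symbols through RefSeq genes of GRCm38.p6, with over 99% matched.

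Junction read counts were summed per host and tested with edgeR 4.0.16 in R 4.3.3 (glmQLFit with robust estimation, TMM scaling, genotype and day as additive terms, 10 or more reads in 2 or more libraries, adjusted p under 0.05 over all hosts or circRNAs). Single-library ratios have exact 95% intervals (scipy 1.17.1) and needed 20 reads over both libraries. The scripts were tested on simulated counts. DESeq2 1.42.0, the SRPBM scale, other filters, a fit without robust estimation, a single-term fit and leaving out each library (with genotype or day as the only term) were alternatives. Scaling the listing minimum to depth and keeping circRNAs listed in all 4 libraries were chosen after seeing the data.

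Named are Slc12a5, Slc17a5 and Slc6a9, each host or circRNA past the threshold, the 5 most read hosts, the 3 largest ratios in each direction per pair of libraries, and each listed pathway host past the threshold. The most read hosts of families, Slc12a2, Slc31a1 and circRNAs of Slc38a10 and others were added after their values were seen. The members and lists were chosen with earlier results of these data known. Labels do not say that any library came from separate animals. Some items are not reported here.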

Additional observations from a re-analysis of the deposited data

How the results depend on the processing

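The 4 hosts that rose and 3 that fell with genotype became 1 and 44 on the SRPBM scale and 1 and 0 with DESeq2. With genotype as the only term 1 fell, with circRNAs listed in all 4 libraries 7 fell, and with the listing minimum scaled to depth 6 fell. Leaving out each library, with genotype as the only term, gave 2 to 3 that rose and 1 to 4 that fell. For single circRNAs, 3 rising and 3 falling became 1 and 52 on the SRPBM scale, 1 and 0 with DESeq2, and 1 and 6 with no filter; 6 fell with at least 20 reads in 2 libraries, 1 rose without robust estimation, and leaving out each library gave 1 to 2 and 1 to 6. For ratios of 2 libraries, higher and lower hosts became 2 and 37 at P12 and 1 and 47 at P13 on the SRPBM scale, where 2 were lower by day in wild type. With at least 50 reads they became 1 and 4 at P12, 1 and 3 at P13, and 0 and 1 by day in wild type, with 0 lower by day in the deletion; at 1.5-fold 5 were lower there. Directions turned on the SRPBM scale for Slc44a1 (-0.83), Slc26a11 (-0.026), Slc4a7 (-1.45) and circRNA 5 of Slc44a1 (-0.44), and without the deletion P13 library for Slc8a1 (0.11, against -0.25 without the deletion P12 library) and Slc4a7 (-0.14, against 0.28 without the deletion P12 library). The cause was not tested. No paired analysis was possible because each group has 1 library and the labels give no replicate numbers. Depth limits hosts of few reads: 75 of 136 were not tested.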

Other observations

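Of the 136 solute carrier hosts, 63 had reads in all 4 libraries, 45 had reads in wild-type libraries alone and 7 in deletion libraries alone. The wild-type libraries held more junction reads in all, and the same shares over all hosts are not given here. The hosts seen in wild type alone had at most 25 reads each and those seen in the deletion alone at most 5. The intronic circRNAs came from 23 hosts, and the most read of them had 30 reads over the 4 libraries. It belonged to Slc25a26, at chromosome 6, 94513805 to 94535768, with 7, 9, 14 and 0 reads. Slc25a26 had 7 circRNAs, 6 of them classed as intronic, and circRNA 2 of the host, at 94534144 to 94550605, had 10, 3, 6 and 6 reads. None of the intronic circRNAs had enough reads to be tested singly.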
